A study of Mus musculus with 10 samples.

Results

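The genes described here are 37 that make up the NF-kB machinery of regulatory T cells (Tregs), out of 27179 genes in the deposited count table. They were matched by gene symbol to a fixed list of the 5 NF-kB subunits, 3 cytoplasmic and 3 nuclear inhibitors, 6 feedback and ubiquitin-editing genes, 7 genes of the IkB kinases (IKK) and their relatives, 2 CARD adaptors, 8 TRAF and cIAP genes, 2 RIP kinases and the adhesion gene Icam1. All 37 were found and all 37 passed the filter on low counts. RNA was sequenced from Tregs of C57BL/6 mice, sorted by CD4, TCR beta and a YFP reporter, from gut (colon plus small intestine) and from spleen. The 4 groups were Maf-KO gut (2 libraries), WT gut (2), Maf-KO spleen (3) and WT spleen (3). Maf-KO mice were Maffl/fl x Foxp3Cre-YFP, and WT mice carried Foxp3Cre-YFP without the floxed Maf alleles, so every library comes from cells with the Cre and YFP transgene. Because the Foxp3 gene drives Cre, deletion is limited to cells that express Foxp3 or have done so. Age was not given, and nothing in the labels says whether the replicates of a group were separate animals, so p-values measure the spread between libraries, which may be technical.

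NF-kB is a family of transcription factors that sit in the cytoplasm bound to inhibitors of the IkB family. Engagement of the T cell receptor, CD28 or receptors of the TNF family activates the IKK complex, which marks the inhibitors for degradation and frees the subunits to enter the nucleus, where they switch on their targets, among them their own inhibitors. In mice, the subunit encoded by Rel is needed for Treg development and for the identity of mature Tregs, and the deubiquitinase encoded by Tnfaip3 restrains the pathway in a negative feedback loop. Maf is a bZIP transcription factor that gut Tregs express at a high level.

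Library totals ran from 8567035 to 13983965 counts, and a floor of 3 counts corresponded to 0.215 to 0.35 counts scaled to library size (CPM). Maf itself had 0.609 and 0.24 CPM in Maf-KO gut and 108 and 109 CPM in WT gut. It had 0.217, 1.1 and 0.195 CPM in Maf-KO spleen and 30, 24 and 46 CPM in WT spleen. The genotype groups did not overlap in either tissue, and Maf was called lower in both (edgeR's quasi-likelihood test, Benjamini-Hochberg adjusted p = 4.5e-04 in gut and 0.0019 in spleen). All 6 Treg and T cell markers (Foxp3, Il2ra, Ctla4, Tnfrsf18, Cd3e and Cd4) had counts in every library. They summed to 8605 to 8915 CPM in Maf-KO gut and 7937 to 9001 CPM in WT gut. In spleen the sums were 3017 to 3295 CPM in Maf-KO and 2876 to 3553 CPM in WT libraries. The single markers differed less evenly. For gut over spleen, 4 were called higher and 0 lower in Maf-KO cells, and 3 higher and 1 lower in WT cells. Log2 fold changes ran from -0.65 to 4.09 in Maf-KO cells (median 0.60) and from -0.77 to 3.71 in WT cells (median 0.48).

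Gut Tregs were set against spleen Tregs within each genotype, and here the NF-kB genes differed widely. In Maf-KO cells 24 of the 37 members were called (adjusted p under 0.05), 20 of them higher in gut and 4 lower, where 28.6% of all 13214 genes tested were called, 14.4% higher and 14.1% lower. In WT cells 21 members were called, 18 higher and 3 lower, where 28% of all genes were called, 14.7% higher and 13.3% lower. The median log2 fold change of the members was 0.52 in Maf-KO and 0.44 in WT cells, beside -0.02 and -0.03 over all genes tested. The members with the widest gap were the inhibitors and feedback genes Tnfaip3, Nfkbiz, Nfkbid and Nfkbia, the subunit gene Rel and the adaptor gene Traf4. Together the 37 genes held 1.56 and 1.7% of all counts in Maf-KO gut against 0.565, 0.496 and 0.552% in Maf-KO spleen, and 1.67 and 1.7% in WT gut against 0.608, 0.548 and 0.605% in WT spleen. In these bulk libraries, fewer cells of a type and less RNA per cell cannot be told apart.

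**Figure D1:**
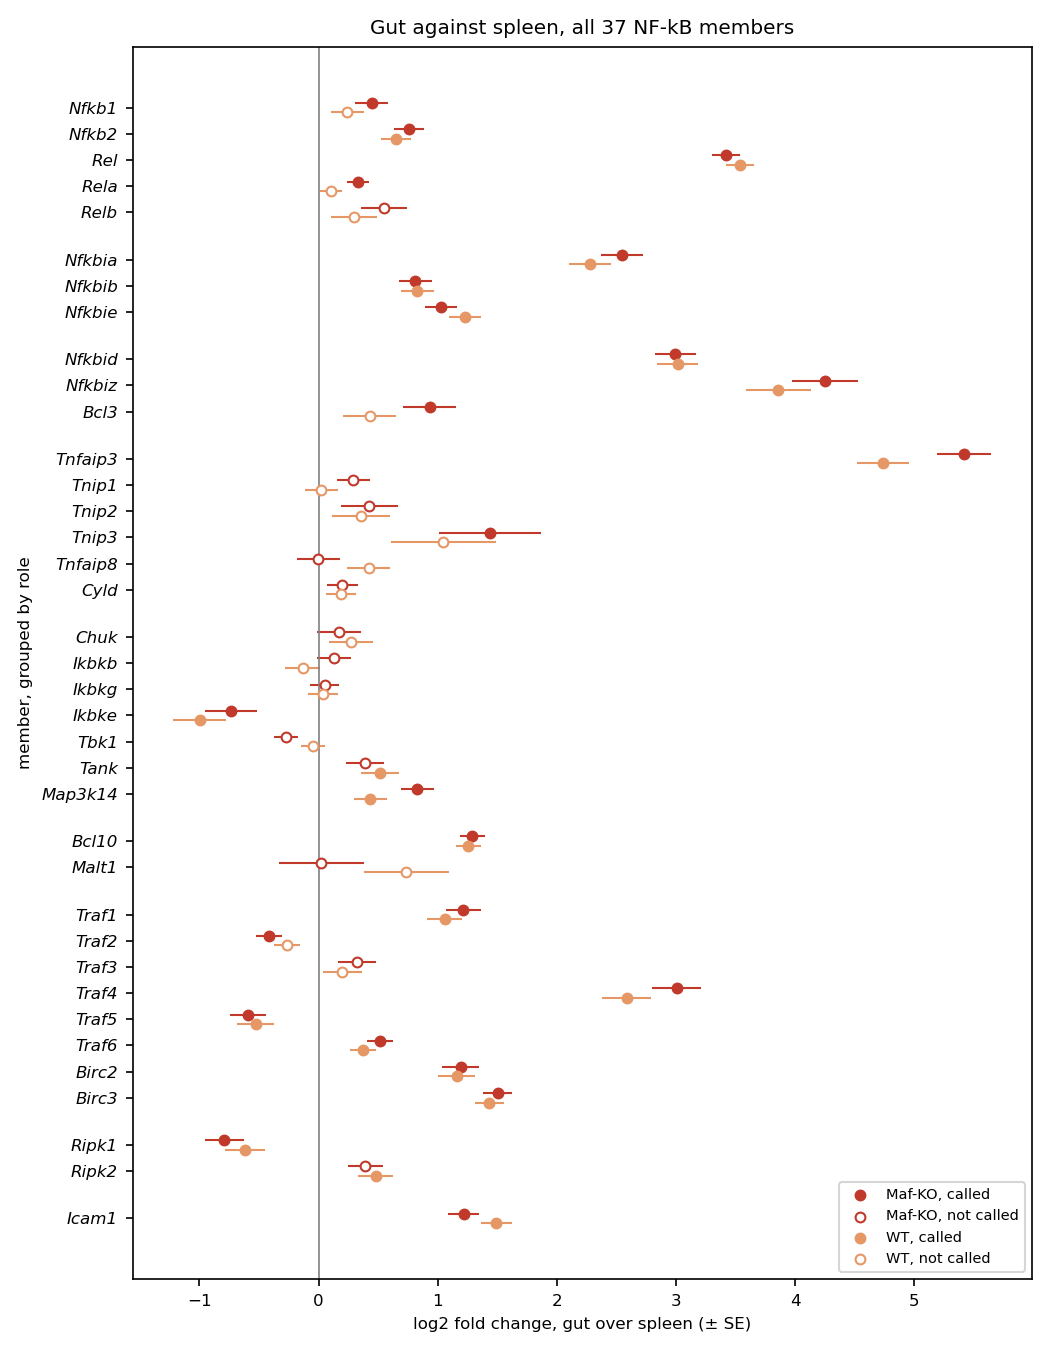
Log2 fold change of gut over spleen for each of the 37 members, grouped by role, in Maf-KO (upper mark of each pair) and WT cells (lower mark), with bars of 1 SE and filled marks for adjusted p under 0.05. Most called members lie right of 0, with Tnfaip3 farthest right at 5.42 in Maf-KO and 4.74 in WT cells, and Ikbke and Ripk1 are among the few on the left.

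The calls fell on largely shared genes: 16 members were called higher in gut in both genotypes and 3 lower in both, while 11 were called in neither. The tissue comparisons share no library, since each uses libraries of 1 genotype, although they share an estimate of the spread. In each genotype 13 of the 37 members differed by more than 1 on the log2 scale. Neither the shared calls nor these wide differences were counted over all genes tested. Whether they are more frequent among members than among other genes is therefore not known. Leaving out any library, changing the scaling, the filter or the tool, or adding a block kept 14 members called in gut against spleen in both genotypes: Bcl10, Birc2, Birc3, Icam1, Nfkb2, Nfkbia, Nfkbib, Nfkbid, Nfkbie, Nfkbiz, Rel, Tnfaip3, Traf1 and Traf4. This count was not made over all genes tested either, so whether 14 is many for a list of 37 is not known. Scaling by library totals alone shifted the median of all genes by -0.26 in Maf-KO and -0.27 in WT cells, and the WT members then split into 14 higher and 6 lower, beside 18 and 3.

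Of the members, 30 had a promoter window in RefSeq's table for GRCm38.p6, which runs from 250 bases before to 50 after a start of the gene. The kappa-B consensus, the sequence that NF-kB dimers recognise, was searched on both strands and matched in a window of 13 of these 30 genes (43.3%), against 9.55% of all 27025 genes in the table. A narrower form of the motif was present in 8 of the 30 (26.7%) against 1.89% of all genes. In 7 of those 8 genes a window also matched the consensus, and in Traf2 none did. A short Maf recognition motif, TGCTGAC, occurred in the windows of 1 member, Birc2 (3.33%), against 5.28% of all genes. Some genes have several windows. Counted by window, the consensus matched in 18 of 43 member windows (41.9%) against 8.46% of all 32851 windows. The member list was drawn up to include feedback genes and targets of NF-kB, so a high share may come from that choice. That was not tested, and the share is no result of these libraries. These are matches of letters and say nothing of binding. The windows of 4 members that were called higher in gut in both genotypes and hold the narrow form are printed here, 5′ to 3′ on the strand of the gene, with every match of the consensus in capitals.

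Nfkbia, chr12:55492598-55492897, GRCm38.p6, minus strand: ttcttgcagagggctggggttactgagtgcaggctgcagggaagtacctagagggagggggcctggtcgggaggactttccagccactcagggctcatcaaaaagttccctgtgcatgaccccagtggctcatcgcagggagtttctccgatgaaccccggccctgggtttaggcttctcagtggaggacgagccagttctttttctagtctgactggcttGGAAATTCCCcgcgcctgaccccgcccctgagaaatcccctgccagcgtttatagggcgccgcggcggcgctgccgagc

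Tnfaip3, chr10:19015361-19015660, GRCm38.p6, minus strand: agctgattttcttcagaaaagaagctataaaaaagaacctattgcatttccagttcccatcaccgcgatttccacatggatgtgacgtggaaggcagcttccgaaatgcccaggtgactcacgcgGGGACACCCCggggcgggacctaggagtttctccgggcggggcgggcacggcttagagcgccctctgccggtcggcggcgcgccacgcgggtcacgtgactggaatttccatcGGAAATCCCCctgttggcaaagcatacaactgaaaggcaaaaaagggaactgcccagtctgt

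Rel, chr11:23770920-23771219, GRCm38.p6, minus strand: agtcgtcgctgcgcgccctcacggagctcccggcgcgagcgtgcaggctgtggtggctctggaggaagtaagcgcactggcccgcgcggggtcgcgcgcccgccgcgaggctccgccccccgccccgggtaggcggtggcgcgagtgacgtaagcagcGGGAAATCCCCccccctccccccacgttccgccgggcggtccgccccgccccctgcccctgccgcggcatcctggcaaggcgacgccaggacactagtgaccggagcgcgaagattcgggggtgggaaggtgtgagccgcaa

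Nfkb2, chr19:46304487-46304786, GRCm38.p6, plus strand: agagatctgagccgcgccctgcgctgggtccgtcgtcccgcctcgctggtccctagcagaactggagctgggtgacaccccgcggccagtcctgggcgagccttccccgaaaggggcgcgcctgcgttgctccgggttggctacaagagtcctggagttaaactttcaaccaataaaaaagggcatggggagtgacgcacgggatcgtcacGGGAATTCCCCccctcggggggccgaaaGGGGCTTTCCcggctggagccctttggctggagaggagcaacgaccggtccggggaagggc

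In Nfkbia the match begins 29 bases before the start of the gene. Tnfaip3 holds matches at 125 and 12 bases before its start, and Rel a pair of overlapping matches at 92 and 91 bases before. This Nfkb2 window is 1 of several for that gene, and its start lies inside the gene model, which begins at position 46300994. Overlapping matches begin 39 and 38 bases before the start of this window and another 11 bases before, counted from that inner start. The windows of Icam1, Traf4, Birc3, Traf1, Birc2, Nfkbib, Map3k14 and Traf6, which were also called higher in gut in both genotypes, held no match of the consensus. Cyld, Tnip1 and Traf3, called in neither genotype, had a window with a match.

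Among the 5 subunits, Rel, which encodes c-Rel, changed by far the most. It had 409 and 433.4 CPM in Maf-KO gut against 39.8, 39.9 and 38 CPM in Maf-KO spleen. WT gut had 448 and 362 CPM against 33, 37.5 and 34.2 CPM in WT spleen. Every gut library lay far above every spleen library. The log2 fold change was 3.42 (SE 0.12, adjusted p = 2.1e-07) in Maf-KO and 3.54 (SE 0.12, adjusted p = 1.5e-07) in WT cells by edgeR, a 10.7-fold and an 11.6-fold difference.

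Nfkb2, which encodes the precursor of the subunit used by the non-canonical branch, also rose. Its level was 262 and 275 CPM in Maf-KO gut against 171, 150 and 153 CPM in Maf-KO spleen. In WT gut it had 270 and 229 CPM against 144, 152 and 181 CPM in WT spleen. The groups did not overlap in either genotype (log2 fold change 0.76, SE 0.13 in Maf-KO and 0.65, SE 0.13 in WT cells, edgeR adjusted p = 0.0017 and 0.0042). The gene model overlaps those of Psd and 4833438C02Rik, and since the strand setting of the counting was not given, part of its reads may belong to them.

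Rela, the main transactivating partner of the canonical branch, had 270 and 292 CPM in Maf-KO gut against 224, 226 and 221 CPM in Maf-KO spleen. The WT values were 256 and 236 CPM in gut against 223, 229 and 235 CPM in WT spleen. Its call rested on a small difference in Maf-KO cells (log2 fold change 0.33, SE 0.09, edgeR adjusted p = 0.024) and was absent in 8 of 19 alternatives, among them library totals and the omission of any 1 of the 5 Maf-KO libraries (adjusted p up to 0.57). In WT cells it was not called (0.10, adjusted p = 0.44), and the sign turned with the scaling, over a range of -0.16 to 0.16.

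Nfkb1, the precursor gene of the canonical branch, had 213 and 172 CPM in Maf-KO gut against 162, 125 and 137 CPM in Maf-KO spleen. Levels in WT gut were 167 and 185 CPM against 136, 152 and 159 CPM in WT spleen. It was called in Maf-KO cells alone (log2 fold change 0.45, adjusted p = 0.039, against 0.24, adjusted p = 0.24 in WT cells), in 12 of 19 alternatives, and not after omission of replicate 2 of Maf-KO gut, WT spleen or Maf-KO spleen, or of Maf-KO spleen replicate 3 (adjusted p up to 0.31 over the alternatives). Relb, the non-canonical partner, had 119 and 167 CPM in Maf-KO gut against 114, 76.4 and 103 CPM in Maf-KO spleen. WT gut had 140 and 116 CPM against 93.3, 104 and 115 CPM in WT spleen. It missed the threshold in both genotypes (edgeR adjusted p = 0.059 and 0.29), but in Maf-KO cells it passed in 6 of 19 alternatives. These were a replicate block on the number in the sample titles (adjusted p = 0.0066 as a random effect and 0.0046 as a fixed term), DESeq2 (0.028), no filter (0.033), and the omission of replicate 1 of Maf-KO spleen (0.042) or replicate 2 of Maf-KO gut (0.038). None of these tests compares the genotypes with each other.

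Per transcript length, on the deposited log2 FPKM scale, Rel changed place within the family. Its level was 7.24 ± 0.05 in Maf-KO gut (SD, n = 2) and 7.20 ± 0.27 in WT gut (n = 2), which put it above the other 4 subunits in each of the 4 gut libraries. In Maf-KO spleen it was 4.06 ± 0.04 and in WT spleen 3.91 ± 0.07 (n = 3 each), below the other 4 in each of the 6 spleen libraries. Rela came next in gut, at 6.59 ± 0.07 in Maf-KO and 6.42 ± 0.13 in WT libraries, and was the highest subunit in spleen, at 6.50 ± 0.01 and 6.56 ± 0.03. Nfkb2 and Relb were close to each other in spleen, at 5.72 ± 0.11 and 5.59 ± 0.31 in Maf-KO and 5.74 ± 0.15 and 5.72 ± 0.12 in WT libraries, within their spread. Nfkb1 had the lowest mean in gut, 5.43 ± 0.23 in Maf-KO and 5.33 ± 0.06 in WT libraries, and in Maf-KO gut both of its values lay below both Relb values.

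**Figure D2:**
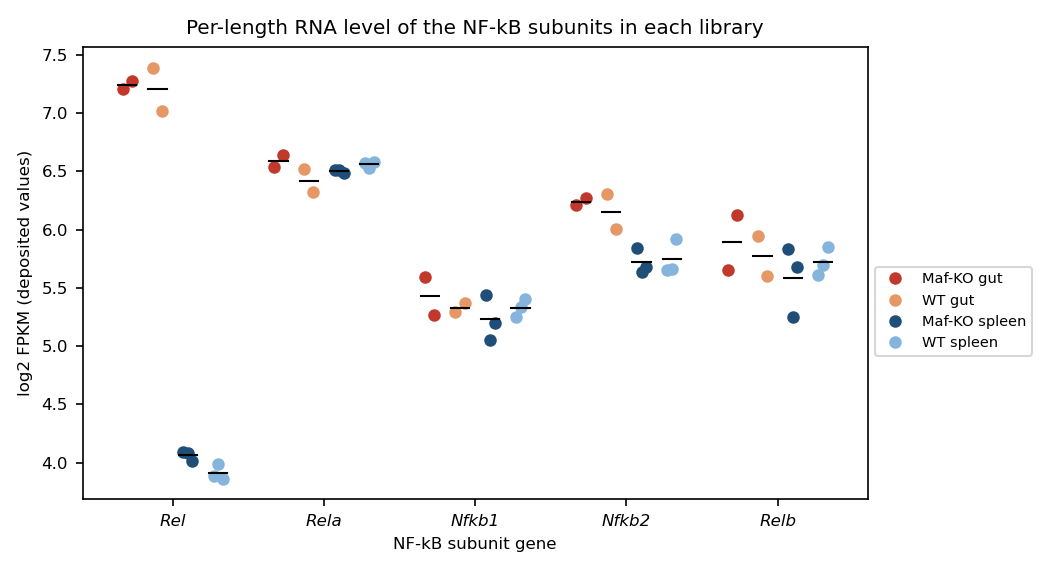
Deposited log2 FPKM of the 5 subunit genes in each of the 10 libraries (points), with the group mean as a line, for Maf-KO gut, WT gut, Maf-KO spleen and WT spleen. Rel is above 7 in all 4 gut libraries and near 4 in all 6 spleen libraries, while the other subunits lie between 5 and 7 in both tissues.

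All 3 cytoplasmic inhibitors, which hold NF-kB dimers outside the nucleus, rose in gut in both genotypes. Nfkbia, which encodes IkB-alpha, had 1969 and 2380 CPM in Maf-KO gut against 379, 305 and 432 CPM in Maf-KO spleen. In WT gut it had 2408 and 2493 CPM against 599, 442 and 475 CPM in WT spleen. The log2 fold change was 2.55 (SE 0.18, adjusted p = 1.0e-05) in Maf-KO and 2.28 (SE 0.18, adjusted p = 1.7e-05) in WT cells. By log2 FPKM, it ranked 27th and 20th of the 12252 genes listed in the Maf-KO gut libraries and 20th in both WT gut libraries, against 151st to 285th in Maf-KO spleen and no higher than 89th in WT spleen. Nfkbie and Nfkbib, for IkB-epsilon and IkB-beta, differed less, with log2 fold changes of 1.03 (SE 0.13) and 0.81 (SE 0.14) in Maf-KO and 1.23 (SE 0.13) and 0.83 (SE 0.14) in WT cells. Nfkbie had 187 and 218 CPM in Maf-KO gut against 103, 92.8 and 102 CPM in Maf-KO spleen. The WT values were 256 and 192 CPM in gut against 89.5, 97.4 and 99.7 CPM in WT spleen, again with no overlap between tissues (edgeR adjusted p = 4.2e-04 in Maf-KO and 1.4e-04 in WT cells).

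The nuclear IkB proteins act on NF-kB already bound in the nucleus, and depending on the promoter they repress or activate. Nfkbiz, which encodes IkB-zeta, had 1396 and 1435 CPM in Maf-KO gut against 65.1, 63.6 and 93.9 CPM in Maf-KO spleen. Levels in WT gut were 1665 and 1865 CPM against 168, 83.7 and 113 CPM in WT spleen. That is a log2 fold change of 4.25 (SE 0.28, adjusted p = 7.0e-06) in Maf-KO and 3.86 (SE 0.27, adjusted p = 9.4e-06) in WT cells. Nfkbid is the gene for IkB-NS, which in mice promotes Foxp3 expression during Treg development. It had 704 and 631 CPM in Maf-KO gut against 97.5, 63.3 and 90.2 CPM in Maf-KO spleen. WT gut had 791 and 790 CPM against 105, 101 and 86.7 CPM in WT spleen (8.0-fold in Maf-KO and 8.1-fold in WT cells, edgeR adjusted p = 3.4e-06 and 3.1e-06). Both genes were higher in every gut library than in any spleen library. Bcl3, the remaining nuclear member, was called in Maf-KO cells (log2 fold change 0.93, adjusted p = 0.011), though not without Maf-KO gut replicate 3 (0.088), and not in WT cells (0.43, adjusted p = 0.18).

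Tnfaip3 was the member with the largest difference of all 37. This gene for a ubiquitin-editing brake on NF-kB had 7040 and 7664 CPM in Maf-KO gut against 182, 146 and 187 CPM in Maf-KO spleen. In WT gut it had 6436 and 7545 CPM against 304, 189 and 292 CPM in WT spleen. The fold change was 42.8 in Maf-KO cells (log2 5.42, SE 0.23, adjusted p = 3.6e-07) and 26.7 in WT cells (log2 4.74, SE 0.22, adjusted p = 8.0e-07). It ranked 18th and 17th by log2 FPKM in Maf-KO gut and 24th and 18th in WT gut, against 2229th to 2818th in Maf-KO spleen and 1197th to 2191st in WT spleen. In gut this gene alone took 0.627 and 0.686% of all counts in Maf-KO and 0.587 and 0.668% in WT libraries. Without it the other 36 members still held 0.935 and 1.02% in Maf-KO gut against 0.48 to 0.546% in Maf-KO spleen, and 1.08 and 1.03% in WT gut against 0.528 to 0.574% in WT spleen.

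Of the other 5 feedback genes, 1 was called in Maf-KO and none in WT cells. Tnip3, which encodes a partner protein of the Tnfaip3 product, was low everywhere, at 13 and 24.8 CPM in Maf-KO gut against 11, 3.31 and 6.63 CPM in Maf-KO spleen. The WT values were 12.3 and 8.17 CPM in gut against 4.8, 5.08 and 4.94 CPM in WT spleen. It was called in Maf-KO cells (log2 fold change 1.44, adjusted p = 0.031), but not once Maf-KO gut replicate 3, or spleen replicate 2 or 3 of that genotype, was left out (adjusted p up to 0.28 over the alternatives). In WT cells (1.05, adjusted p = 0.11) it passed in each of 4 separate alternatives. These were the replicate block (adjusted p = 0.036 as a random effect, 0.010 as a fixed term), the omission of Maf-KO spleen replicate 2 (0.049) and a fit of WT libraries alone (0.032). Tnip1 and Tnip2, which encode related partner proteins, and Cyld, another deubiquitinase gene of the pathway, were not called in either genotype. The block added Tnip1 in Maf-KO cells (log2 fold change 0.29 without and 0.30 with it, adjusted p = 0.025), and as a fixed term Tnip2 (0.034). Tnfaip8, a TNF-induced regulator of cell death, had a log2 fold change of -0.00067 in Maf-KO and 0.42 in WT cells, neither of them called (adjusted p = 0.11 in WT cells). The WT value passed with the block (adjusted p = 0.039) and without WT spleen replicate 3 (0.61, adjusted p = 0.018).

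**Figure D3:**
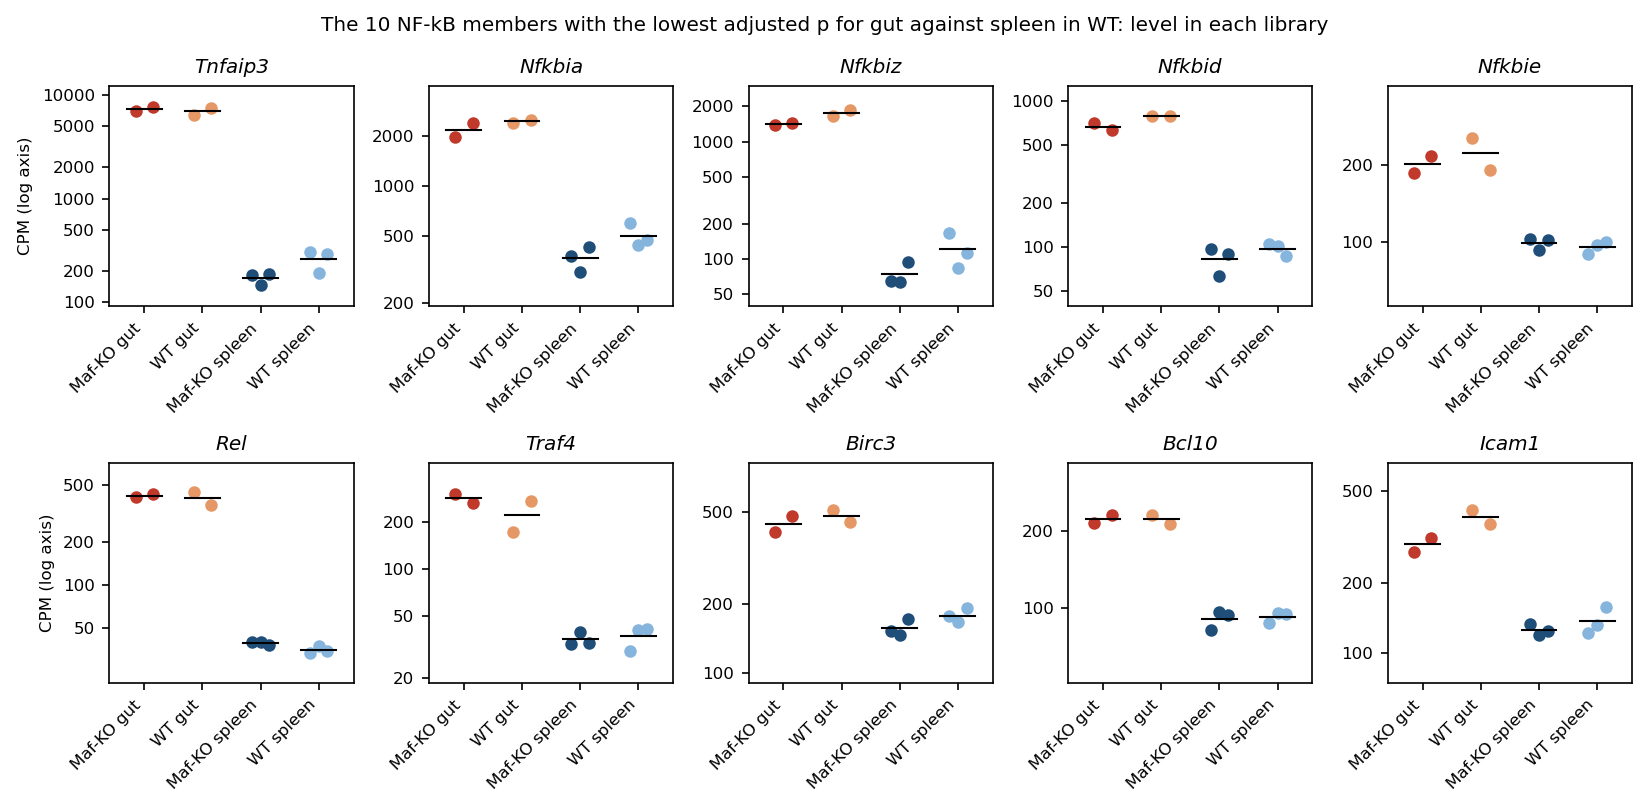
CPM of the 10 members with the lowest edgeR adjusted p for gut against spleen in WT cells, in each library on a log axis. There is 1 panel per gene, with Maf-KO gut, WT gut, Maf-KO spleen and WT spleen from left to right. In each panel all 4 gut libraries lie above all 6 spleen libraries, by the widest distance in Tnfaip3 and Nfkbiz. The genes were chosen by this difference, so the separation is no separate result, and members lower in gut, such as Ikbke, are not shown.

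Of the 7 genes for kinases of the pathway and their partners, 1 was called higher and 1 lower in Maf-KO cells, and 2 higher and 1 lower in WT cells. Chuk, Ikbkb and Ikbkg, which encode the catalytic and regulatory subunits of the IKK complex, had log2 fold changes of 0.17, 0.13 and 0.05 in Maf-KO and 0.27, -0.13 and 0.04 in WT cells, none of them called, although Ikbkb passed as lower in WT cells with library totals (adjusted p = 0.049). Ikbkg overlaps the models of G6pdx and Fam3a, so its counts are uncertain. Map3k14, for the kinase that starts the non-canonical branch, was higher in gut at 98 and 116 CPM in Maf-KO against 56.7, 55.9 and 67.95 CPM in Maf-KO spleen (log2 fold change 0.83, adjusted p = 0.0018). In WT cells it had 80.3 and 96.9 CPM in gut against 63.7, 72.65 and 60.2 CPM in spleen (0.44, adjusted p = 0.043), a call present in 7 of 19 alternatives (adjusted p up to 0.36), and absent without either WT gut library, WT spleen replicate 1 or 3, either Maf-KO gut library or Maf-KO spleen replicate 1 or 2. Ikbke, for an IKK-related kinase of the interferon response, was lower in gut, at 86.4 and 112 CPM in Maf-KO against 153, 134 and 207 CPM in Maf-KO spleen, and at 92.6 and 94.1 CPM in WT against 217, 197 and 145 CPM in WT spleen (log2 fold change -0.73 and -0.997, adjusted p = 0.031 and 0.0079). Tbk1, its close relative, missed the threshold (log2 fold change -0.27, adjusted p = 0.064 in Maf-KO and -0.05, adjusted p = 0.76 in WT cells). It was called lower in Maf-KO cells with the block as a random effect (adjusted p = 0.016), with library totals and on log2 FPKM, and in WT cells with library totals (0.040). Tank, which encodes a scaffold for these kinases, was called higher in WT cells (0.52, adjusted p = 0.037) in 12 of 19 alternatives, and not without WT gut replicate 1 or any 1 of the 3 WT spleen libraries (adjusted p up to 0.34 over the alternatives). In Maf-KO cells (0.39, adjusted p = 0.099) it passed with the block (adjusted p = 0.015).

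Bcl10, the adaptor gene that links antigen receptor signals to IKK, rose in gut, with 214 and 230 CPM in Maf-KO gut against 82, 96.5 and 94 CPM in Maf-KO spleen. Levels in WT gut were 230 and 213 CPM against 87.1, 95.8 and 95 CPM in WT spleen. The log2 fold change was 1.29 (SE 0.11, adjusted p = 2.4e-05) in Maf-KO and 1.26 (SE 0.11, adjusted p = 2.7e-05) in WT cells. Its partner gene Malt1, a protease gene, was not called, at 158 and 240 CPM in Maf-KO gut against 142 to 289 CPM in Maf-KO spleen. WT gut had 342 and 291 CPM against 160, 134 and 276 CPM in WT spleen (log2 fold change 0.74, adjusted p = 0.15). Without WT spleen replicate 3, its highest spleen library in WT, it was called higher in gut in WT cells (1.11, adjusted p = 0.038).

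The TRAF proteins carry signals inward from TNF and interleukin-1 receptors, and they moved in both directions. Traf4 rose most, with 304 and 267 CPM in Maf-KO gut against 33.2, 39.7 and 33.7 CPM in Maf-KO spleen. In WT gut it had 173 and 274 CPM against 29.8, 40.4 and 41.3 CPM in WT spleen. The difference was 8.0-fold in Maf-KO and 6.0-fold in WT cells (edgeR adjusted p = 8.4e-06 and 1.7e-05). Traf1, itself a known NF-kB target, rose by a log2 fold change of 1.21 in Maf-KO and 1.06 in WT cells. Birc3 and Birc2, which encode the ubiquitin ligases of the TRAF complexes, rose by 1.503 (SE 0.12) and 1.19 (SE 0.15) in Maf-KO and by 1.43 (SE 0.12) and 1.16 (SE 0.15) in WT cells on the log2 scale. Birc3 stood at 408 and 478 CPM in Maf-KO gut against 152, 146 and 171 CPM in Maf-KO spleen. The WT values were 509 and 451 CPM in gut against 177, 166 and 191 CPM in WT spleen. Traf6 rose by 0.52 in Maf-KO and 0.37 in WT cells (adjusted p = 0.0058 and 0.028), the WT call being absent without either WT gut library or WT spleen replicate 1 or 3 (adjusted p up to 0.44 over the alternatives).

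Traf5 and Traf2 were lower in gut. Traf5 had a log2 fold change of -0.59 in Maf-KO and -0.53 in WT cells (adjusted p = 0.017 and 0.028), though its counts are uncertain because the models of Gstp-ps and Mir3473c overlap it. Traf2, which recruits the ubiquitin ligases, was called in Maf-KO cells (-0.41, adjusted p = 0.017), and in WT cells (-0.26, adjusted p = 0.095) with the block as a random effect (0.021), with library totals, on log2 FPKM and without WT gut replicate 3. Traf3, which restrains the non-canonical kinase, was called in neither genotype. In Maf-KO cells (log2 fold change 0.32, adjusted p = 0.17) it passed with the block (0.36, adjusted p = 0.044) and without WT spleen replicate 1 (adjusted p = 0.043). Ripk1, a kinase gene downstream of TNF receptors whose model overlaps that of Serpinb6a, was lower in gut, with log2 fold changes of -0.79 in Maf-KO and -0.62 in WT cells (adjusted p = 0.0058 and 0.019). Ripk2, the kinase gene of the NOD pathway, was called higher in WT cells (0.48, adjusted p = 0.036) in 10 of 19 alternatives, and not without WT gut replicate 1, WT spleen replicate 2 or 3 or either Maf-KO gut library (adjusted p up to 0.31 over the alternatives). It passed in Maf-KO cells (0.39, adjusted p = 0.073) with the block as a random effect (0.019).

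The calls of lower expression changed with the omission of 1 library. Without Maf-KO gut replicate 3 none of the 4 lower calls in Maf-KO cells was left, and without Maf-KO gut replicate 2 there was 1. In WT cells none of the 3 was left without WT gut replicate 1 and 1 was left without WT spleen replicate 3, while without WT spleen replicate 2 there were 2, Traf5 being absent. Ikbke in Maf-KO cells was also not called without Maf-KO spleen replicate 3 (adjusted p up to 0.20 over the alternatives). The number of higher calls, which counts genes gained as well as kept, was 17 in Maf-KO cells without gut replicate 3 and 19 without gut replicate 2, and 14 in WT cells without gut replicate 1 and 16 without spleen replicate 3.

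Icam1 is an adhesion gene and a textbook NF-kB target. It had 273 and 315 CPM in Maf-KO gut against 134, 120 and 125 CPM in Maf-KO spleen. Levels in WT gut were 414 and 361 CPM against 123, 133 and 158 CPM in WT spleen. The difference was called in both genotypes (log2 fold change 1.22, SE 0.13, adjusted p = 1.3e-04 in Maf-KO and 1.49, SE 0.13, adjusted p = 3.4e-05 in WT cells).

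The rest of the pathway was read from 4 further lists. Of 24 upstream signalling genes, 3 rose and 2 fell in gut in Maf-KO cells (median log2 fold change -0.11) and 2 rose and 3 fell in WT cells (median -0.14). Among them was Prkcq, a kinase gene that couples the T cell receptor to NF-kB, at 165 to 189 CPM in Maf-KO gut against 396 to 439 CPM in Maf-KO spleen and 150 to 176 CPM in WT gut against 427 to 479 CPM in WT spleen (log2 fold change -1.24 and -1.48, edgeR adjusted p = 8.1e-05 and 2.6e-05). Tab2, which encodes an adaptor of the kinase above IKK, rose by 0.86 and 0.87 on the log2 scale (adjusted p = 3.1e-04 and 2.8e-04). Tax1bp1, for another partner of the Tnfaip3 product, rose by 0.38 in Maf-KO cells (adjusted p = 0.012), and Tradd, an adaptor gene of TNF receptors, had a log2 fold change of -0.67 in WT cells (adjusted p = 0.0044).

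Of 18 receptor genes, 7 rose and 2 fell in gut in Maf-KO cells and 8 rose and 3 fell in WT cells (median 0.32 and 0.50). Tnfrsf1b, for the TNF receptor abundant on Tregs, had 3485 to 3801 CPM in Maf-KO gut against 632 to 1086 CPM in Maf-KO spleen, and 2510 to 2925 CPM in WT gut against 508 to 883 CPM in WT spleen (log2 fold change 2.17, adjusted p = 2.6e-04 and 1.97, adjusted p = 4.6e-04). Il1r1, an interleukin-1 receptor gene, had 21.1 to 53.5 CPM in Maf-KO gut against 0.977 to 2.09 CPM in Maf-KO spleen, and 12.5 to 21.9 CPM in WT gut against 0.462 to 0.801 CPM in WT spleen. Tnfrsf9, a costimulatory receptor gene, rose by 1.77 in Maf-KO and 1.79 in WT cells.

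Of 27 genes known as NF-kB targets, 26 were tested, and 16 rose and 3 fell in gut in Maf-KO cells (median 1.53) and 17 rose and 4 fell in WT cells (median 2.11). Zc3h12a, which encodes an RNase that limits inflammatory transcripts, had 232 to 287 CPM in Maf-KO gut against 19.4 to 29 CPM in Maf-KO spleen and 227 to 231 CPM in WT gut against 24.8 to 33.4 CPM in WT spleen. Gadd45b, a stress-response gene, had 728 to 852 CPM in Maf-KO gut against 23.2 to 39 CPM in Maf-KO spleen. Cd83, an activation marker, rose by 2.76 in Maf-KO and 3.19 in WT cells, and Sdc4, a proteoglycan gene, by 2.94 in WT cells. Many of these genes also answer to other pathways.

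Immediate-early and heat shock genes, which respond to handling of cells as well as to activation, moved with tissue too. In gut 14 of 18 rose and 1 fell in Maf-KO cells (median 2.27), and 15 rose and 1 fell in WT cells (median 2.76). Their summed level was 19948 to 27189 CPM in Maf-KO gut against 3102 to 3761 CPM in Maf-KO spleen, and 25109 to 46900 CPM in WT gut against 3148 to 4789 CPM in WT spleen, and none was at 0 in any library. Nr4a1, an early gene of T cell receptor signalling, had 2526 to 2836 CPM in Maf-KO gut against 88.3 to 121 CPM in Maf-KO spleen and 3028 to 3162 CPM in WT gut against 100.2 to 132 CPM in WT spleen. Fosb stood at 135 to 180 CPM in Maf-KO gut against 0.868 to 2.44 CPM in Maf-KO spleen, and Atf3 at 79.7 to 93.5 CPM against 0.109 to 1.32 CPM. The part of this list in the NF-kB result was not tested.

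Markers of other cell types also differed between tissues, and their part in the results was not tested. Of 5 plasma cell markers, 4 rose in gut in Maf-KO and 5 in WT cells, with sums of 1133 to 3398 CPM in Maf-KO gut, 2042 to 6414 CPM in WT gut, 78.5 to 119 CPM in Maf-KO spleen and 52.8 to 125 CPM in WT spleen. Of 7 B cell markers, 4 fell in gut in each genotype, to sums of 58.2 to 88.6 CPM in Maf-KO gut and 64.6 to 78.9 CPM in WT gut, against 156 to 442 CPM in Maf-KO spleen and 217 to 337 CPM in WT spleen. A list of 6 CD8, NK and innate lymphoid markers summed to 4173 to 4535 CPM in Maf-KO gut, 2641 to 2893 CPM in WT gut and at most 116 CPM in spleen, and 1 gene, Gzma, averaged 4321 CPM in Maf-KO gut and 2742 CPM in WT gut. The other 5 of these markers had negative log2 fold changes in gut in both genotypes, 2 of them called lower (median of the 6, -0.86 in Maf-KO and -1.41 in WT cells). Gut epithelial markers, 11 in all, summed to 129 to 135 CPM in Maf-KO gut and 142 to 173 CPM in WT gut. Their sums were 33.9 to 67.4 CPM in Maf-KO spleen and 38.2 to 62.9 CPM in WT spleen. In spleen libraries 6 or 7 of the 11 were at 0, as were 6 in WT gut replicate 3 and 1 in WT gut replicate 1. Of the 5 tested, 2 were called higher in gut in each genotype. Macrophage, monocyte and neutrophil markers (9) ranged over 83.5 to 254 CPM in Maf-KO gut, 91.9 to 193 CPM in WT gut, 131 to 486 CPM in Maf-KO spleen and 157 to 857 CPM in WT spleen. Stromal and endothelial markers (8) summed to 44.5 to 78.9 CPM in Maf-KO gut, 66.2 to 67 CPM in WT gut, 114 to 176 CPM in Maf-KO spleen and 125 to 191 CPM in WT spleen. Of the 6 tested, however, 2 were called higher in gut and 1 lower in each genotype. Their median log2 fold change was 0.57 in Maf-KO and 0.67 in WT cells. Sums of the MHC class II and dendritic cell markers (7) overlapped between all groups, with 1 marker called higher and 2 lower in gut in each genotype. Of 6 pancreatic acinar markers, 5 were tested, and all 5 were called higher in gut in WT cells (median log2 fold change 6.89) and none in Maf-KO cells, with sums of 1.31 to 2.24 CPM in Maf-KO gut, 20 to 114 CPM in WT gut, 1.95 to 7.16 CPM in Maf-KO spleen and 1.39 to 2.31 CPM in WT spleen.

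**Figure D4:**
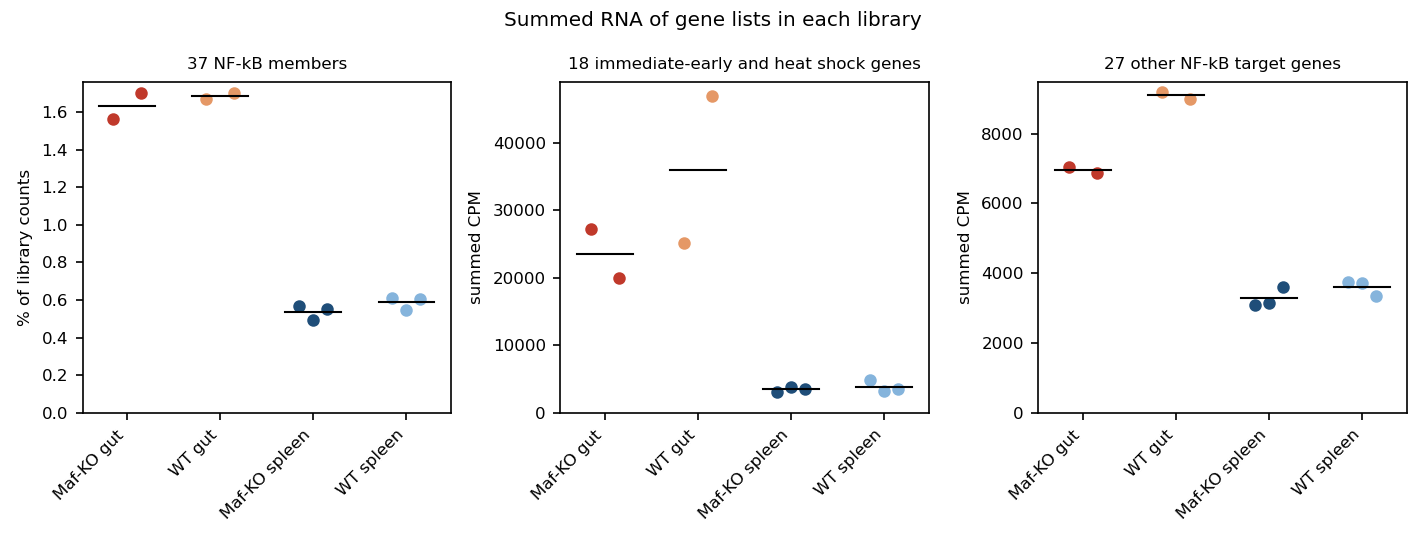
Summed level of gene lists in each library, from left to right Maf-KO gut, WT gut, Maf-KO spleen and WT spleen, with 1 panel per list and the y axis from 0. The members take 1.56 to 1.7% of counts in gut libraries and 0.496 to 0.608% in spleen libraries, and the immediate-early and heat shock list splits by tissue as well.

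Maf-KO Tregs were then set against WT Tregs within each tissue. In gut, none of the 37 members was called by edgeR, where 20 of the 13214 genes tested (0.151%) were called. By DESeq2 and limma-voom the count was 0 as well, and 3 members had an unadjusted p under 0.05, where 8.14% of all genes did. The log2 fold changes ran from -0.67 for Malt1 to 0.89 for Tnip3, 20 positive and 17 negative, with a median of 0.04 beside -0.0035 over all genes, and the median SE was 0.16. Icam1 had the lowest p (log2 fold change -0.40, SE 0.14, edgeR adjusted p = 0.52). It stood at 273 and 315 CPM in Maf-KO gut against 414 and 361 CPM in WT gut, without overlap. Tnfaip8 followed, with 162 and 156 CPM in Maf-KO gut against 201 and 241 CPM in WT gut (-0.48, SE 0.20, edgeR adjusted p = 0.59). Tnip1 had 198 and 234 CPM in Maf-KO gut against 155 and 187 CPM in WT gut (0.34, SE 0.15, edgeR adjusted p = 0.61). With a pair of libraries in each group, a lack of calls does not show that the genotypes are alike.

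None of the 6 genes with the widest gap between tissues was called between genotypes in gut. Traf4 had the largest value of them, a log2 fold change of 0.35 (SE 0.22) at 304 and 267 CPM in Maf-KO gut against 173 and 274 CPM in WT gut, which overlapped. Tnfaip3 had a log2 fold change of 0.07 (SE 0.22), Rel of 0.05 (SE 0.12), Nfkbia of -0.17 (SE 0.20), Nfkbid of -0.24 (SE 0.19) and Nfkbiz of -0.32 (SE 0.28) between Maf-KO and WT gut. All 5 subunits had small positive values, of 0.05 to 0.19, and all 3 cytoplasmic inhibitors values just below 0, of -0.17 to -0.0048. The further pathway lists gave 1 call in gut. The chemokine gene Ccl20, a listed NF-kB target, was lower at 2.56 and 5.48 CPM in Maf-KO gut against 110 and 147.7 CPM in WT gut (log2 fold change -5.01, SE 0.38, edgeR adjusted p = 0.0047). The 27 target genes summed to 7029 and 6860 CPM in Maf-KO gut against 9187 and 9003 CPM in WT gut, a difference that was not tested. Of the 26 tested singly, 17 had negative and 9 positive values (median -0.24). By edgeR 5 of them had an unadjusted p under 0.05, where 8.14% of all genes did. Of the 18 immediate-early and heat shock genes 17 had negative values (median -0.42) and none was called. Pancreatic acinar markers, a list of 6, summed to 1.31 and 2.24 CPM in Maf-KO gut, with 5 of the 6 at 0 in each library, against 20 and 114 CPM in WT gut, and plasma cell markers to 1133 and 3398 CPM in Maf-KO gut against 2042 and 6414 CPM in WT gut. The part of these lists in the members' values was not tested.

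**Figure D5:**
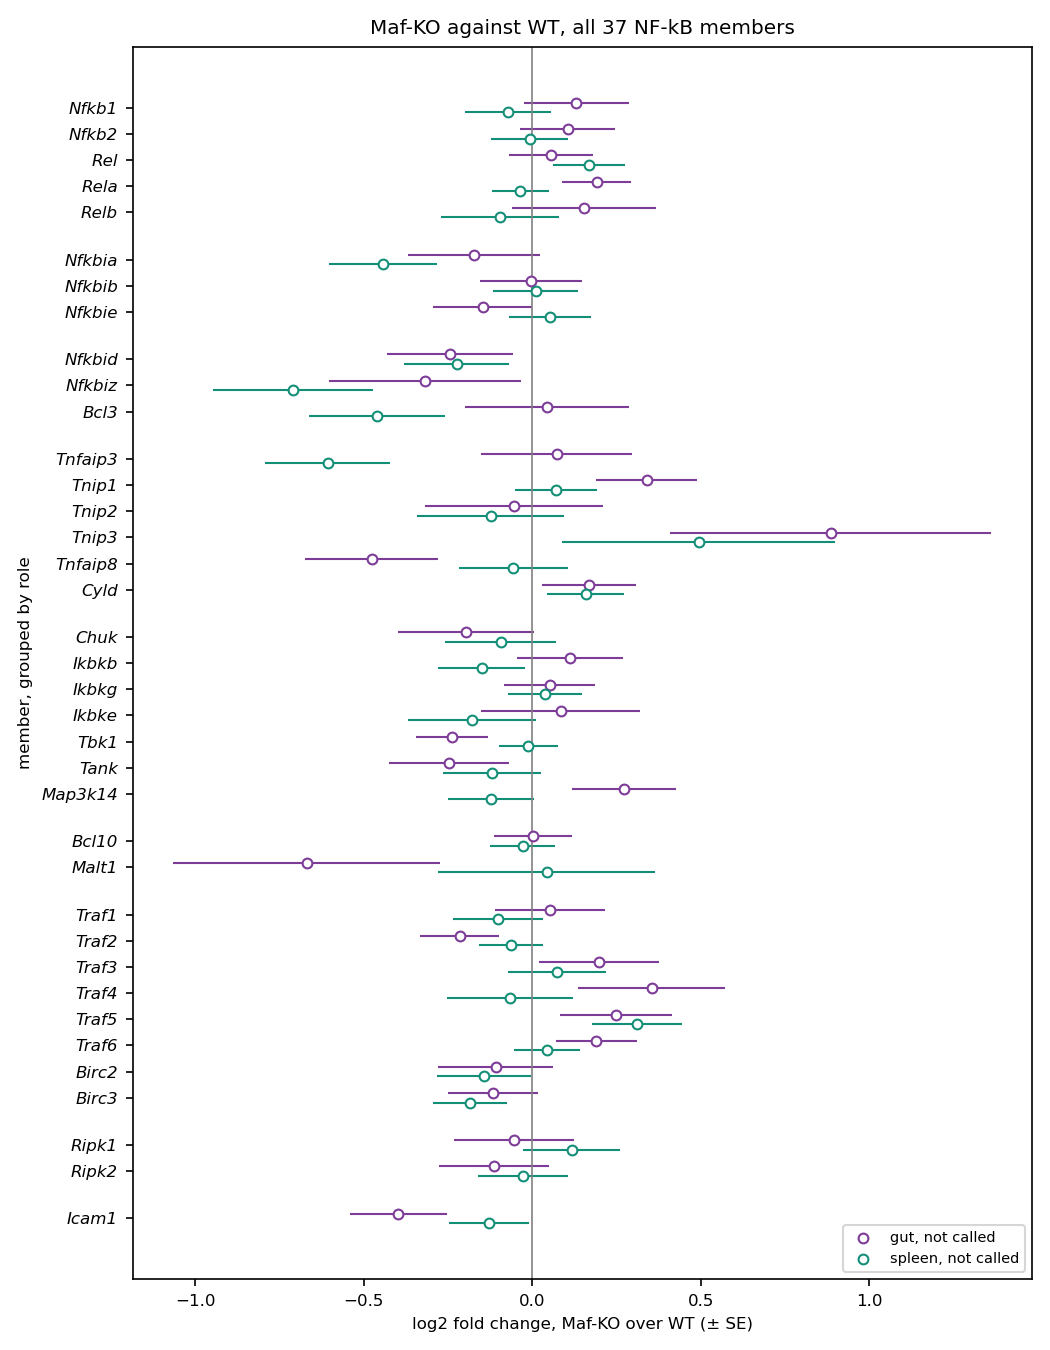
Log2 fold change of Maf-KO over WT for each of the 37 members, grouped by role, in gut (upper mark of each pair) and spleen (lower mark), with bars of 1 SE and open marks because no member reached an adjusted p under 0.05. Values scatter around 0 in gut, and in spleen Nfkbiz, Tnfaip3, Bcl3 and Nfkbia lie farthest left.

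In spleen, no member was called by edgeR, DESeq2 or limma-voom either, where edgeR called 2 of all genes tested (0.0151%). An unadjusted p under 0.05 was reached by 5 members, where 2.85% of all genes had one. Traf5 was among these members, with a positive value (log2 fold change 0.31, SE 0.13, edgeR adjusted p = 0.999). Of the 37 members 25 had negative values and 12 positive ones (median -0.06 beside -0.0065 over all genes). Tnfaip3 had 182, 146 and 187 CPM in Maf-KO spleen against 304, 189 and 292 CPM in WT spleen, which did not overlap although 1 WT library lay next to the Maf-KO ones (log2 fold change -0.61, SE 0.19, edgeR adjusted p = 0.999). For Nfkbiz, with 65.1, 63.6 and 93.9 CPM in Maf-KO spleen against 168, 83.7 and 113 CPM in WT spleen, the groups overlapped (-0.71, SE 0.24, edgeR adjusted p = 0.999). Nfkbia was at 379, 305 and 432 CPM in Maf-KO spleen against 599, 442 and 475 CPM in WT spleen, without overlap (-0.44, SE 0.16, edgeR adjusted p = 0.999). The nuclear inhibitors Nfkbiz, Bcl3 and Nfkbid all had negative values (-0.71, -0.46 and -0.22), and Rel a positive one (0.17, SE 0.11). WT spleen replicate 1 held the highest value of Tnfaip3, Nfkbia, Nfkbiz and Nfkbid in the spleen libraries. The summed level of the immediate-early and heat shock genes was 3102 to 3761 CPM in Maf-KO spleen and 3148 to 4789 CPM in WT spleen, and its part in these values was not tested.

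Whether the genotype effect differed between gut and spleen was tested as an interaction, and no member was called by edgeR, DESeq2 or limma-voom, where edgeR called 0% of all genes and 3.19% had an unadjusted p under 0.05. Only Tnfaip3 among the members had one, with a difference of 0.68 between the log2 fold changes in gut and spleen (SE 0.29, edgeR adjusted p = 0.99994). Map3k14 (0.39, SE 0.20) and Rela (0.23, SE 0.13) came next. The median SE of this difference over the members was 0.21, so that only wide differences could have been called.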

How the data were processed

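The counts are raw, as deposited by the authors, with 1 row per Entrez gene, and the deposited log2 FPKM values of 12252 genes are the authors' per-length levels. The builds GRCm38 and mm10 and the tools featureCounts, Subread and limma are named in the submitters' processing notes. The strand option of the counting, the annotation and the tool versions were not given in the sources used here. Per the labels' protocols, RNA came from an RNeasy Plus Mini Kit and libraries from a TruSeq RNA kit.

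Tests ran in edgeR 4.0.16 (R 4.3.3). The function filterByExpr (minimum count 10, minimum total 15) left 13214 genes, TMM gave scaling factors of 0.887 to 1.12, and all 10 libraries entered 1 quasi-likelihood fit with the 4 groups as coefficients, so that groups share an estimate of the spread. The 5 contrasts were tested two-sided by the F test, with Benjamini-Hochberg adjustment over all genes tested, and called means an adjusted p under 0.05. SE is the log2 fold change over the square root of F. CPM values were computed from the counts with the TMM totals. The procedure was run on simulated counts that held changes between gut and spleen and no genotype effect. That run says nothing of the power to call genotype differences or an interaction. Entries without a symbol, 852 in all with 0.173 to 0.203% of the counts, stayed in totals and tests. Floors cover counting error only. Replicates of a group varied by more than counting (chi-square per degree of freedom 13.9 to 32.6), and no library was a duplicate.

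The members, gene lists and tests were chosen with earlier results of these data known. Values per library are given for the subunits, Nfkbia, Tnfaip3, Icam1, the 10 members of lowest adjusted p in WT gut against spleen and the 3 of lowest p in each genotype contrast; other lists name up to 3 called genes. Some further members, chosen after their values were seen, are given per library where a call rests on few libraries.

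The numbers in the sample titles recur between gut and spleen. Deviations from the group means of same-numbered gut and spleen libraries correlated across genes at 0.382 and 0.36 in Maf-KO and 0.313 and 0.255 in WT mice, so tissue pairs were taken as paired in the alternatives, although the labels do not say that a number is 1 animal. Alternatives were DESeq2 1.42.0, limma 3.58.1 (voom, and trend on the deposited log2 FPKM), other scalings, no filter, blocks on the title number, subsets of libraries, and each library left out.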

Additional observations from a re-analysis of the deposited data

How the results depend on the processing

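Over 22 settings, each applied where it can be fitted, the number of members called kept within 1.5 times the main count in every comparison. Leaving out 1 library gave 17 to 25 members in gut against spleen in Maf-KO cells (24 with all libraries), 14 to 21 in WT cells (21 with all), and 0 to 0 for both genotype comparisons and the interaction. A replicate block on the title number gave 30 members as a random effect and 29 as a fixed term in Maf-KO cells, 24 and 23 in WT cells, and 0 as a random effect in both genotype comparisons and the interaction. It ended no call and changed none beyond those given beside their genes. Replicate numbers shared between genotypes did not mark pairs (correlations -0.347 to -0.039 in spleen and -0.106 in gut), and that block also gave 0 members in spleen. Library totals gave 21 members (16 higher, 5 lower) in Maf-KO and 20 (14 higher, 6 lower) in WT cells.

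Counts over all genes moved more. For Maf-KO against WT in gut, 20 genes became 112 by DESeq2, 74 without the filter, 42 with the random block, 33 by voom, 12 in gut libraries alone and, with 1 library left out, as few as 4 (without either Maf-KO gut library), 5, 7 and 10. In spleen 2 genes became 19 by DESeq2, 12 without the filter, 9 without WT spleen replicate 2, 5 on log2 FPKM, 1 in spleen libraries alone and 0 by voom and with either block. Gut against spleen in Maf-KO cells gave 3774 genes, 5778 with the random block and 2394 and 2118 without Maf-KO gut replicate 2 and 3, and in WT cells 3703 and 2183 without WT gut replicate 1. The interaction gave 0 genes, and 8 by DESeq2. The causes were not tested. Omitting a gut library leaves that group with 1 library, which is assumed to vary like the others. With 2 gut libraries per genotype and a median SE of 0.16 over the members in gut, small genotype differences could not be resolved.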
